A study of Mus musculus with 6 samples.

Results

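The genes described here are 6 secreted class 3 semaphorins (Sema3a, Sema3b, Sema3c, Sema3d, Sema3e and Sema3f), both neuropilins (Nrp1 and Nrp2) and the plexins Plxna2 and Plxnd1, 10 genes in all of the 54532 rows of the expression table. They were chosen by symbol with earlier results of these samples known, that is, selected on the measured difference in FPKM between AdCre and AdGFP among other things, so their values for that difference are a description without a test. FPKM is the number of fragments per kilobase of exon after scaling for sequencing depth. All 10 were among the 13794 genes whose mean reached 0.5 FPKM, and each was above that level in every sample, so none passed through 1 group alone. RNA was sequenced from primary cardiomyocyte cultures made from neonatal mouse hearts and given an adenovirus on day 3. The 6 samples formed 2 groups, 3 labelled AdGFP (control virus encoding GFP, genotype Rit1 +/+ in the labels) and 3 labelled AdCre (virus encoding GFP-Cre, genotype Rit1 M90I/+). Both groups came from mice whose engineered Rit1 locus is switched by Cre to encode RIT1 M90I, a variant of a small GTPase linked to Noonan syndrome, and no sample received Cre without that locus. An effect of Cre itself therefore cannot be told apart from that of the variant.

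Class 3 semaphorins are secreted guidance proteins that bind a neuropilin, the ligand-binding subunit, which pairs with a plexin, the subunit that signals into the cell through its GTPase-activating domain. Sema3e is the exception, since it can bind Plxnd1 without a neuropilin. In the developing heart Sema3c draws neural crest cells into the outflow tract through receptors that include Nrp1, Plxna2 and Plxnd1, Sema3d guides endothelial cells and the pulmonary veins, and the neuropilins also serve as co-receptors for VEGF.

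In the AdCre samples the transcripts of Sema3c and Sema3d were present at a level 3.03-fold and 4.32-fold lower than in AdGFP, while the remaining ligands and all 4 receptors differed by less than 0.5 on the log2 scale. The start regions of both genes on chromosome 5 (GRCm38.p6, RefSeq, + strand) are shown because these are the members with the lowest AdCre level relative to AdGFP. Each runs from 250 bases before to 50 bases after the RefSeq start, with Sema3c at chr5:17574566-17574865 and Sema3d at chr5:12382916-12383215. Capitals mark a GC box (GGGCGG, or CCGCCC read on the other strand) in Sema3c and an ETS core (CCGGAA) in Sema3d.
Sema3c: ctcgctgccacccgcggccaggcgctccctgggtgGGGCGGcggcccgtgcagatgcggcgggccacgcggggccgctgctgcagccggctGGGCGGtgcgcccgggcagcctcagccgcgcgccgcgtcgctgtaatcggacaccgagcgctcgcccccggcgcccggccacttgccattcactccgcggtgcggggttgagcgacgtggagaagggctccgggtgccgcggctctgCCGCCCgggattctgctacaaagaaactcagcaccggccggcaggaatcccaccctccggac
Sema3d: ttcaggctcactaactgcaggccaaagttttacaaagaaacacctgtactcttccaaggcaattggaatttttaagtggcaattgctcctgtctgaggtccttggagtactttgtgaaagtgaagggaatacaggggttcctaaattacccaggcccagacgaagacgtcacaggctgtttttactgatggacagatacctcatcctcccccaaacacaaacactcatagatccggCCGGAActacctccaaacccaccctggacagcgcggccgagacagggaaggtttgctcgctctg

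These start regions were unlike in base composition. That of Sema3c had a GC content of 75.7%, 42 CpG pairs, an observed over expected CpG ratio of 0.979 and 3 GC boxes, which begin at bases 36, 92 and 239 of the window. That of Sema3d had a GC content of 49.7%, 8 CpG pairs, a CpG ratio of 0.436 and 0 GC boxes, and its ETS core began at base 237. Over all 32851 RefSeq start regions of the same length the median GC content was 52.7% and the median CpG ratio 0.384. Of the members, 8 of 10 were matched in the set of RefSeq start regions used here, and Sema3b and Sema3f were not in that set. Among those 8, GC boxes were also found in Sema3e, Nrp1, Nrp2, Plxna2 and Plxnd1, and none in Sema3a. The ETS core was found in Sema3d alone, that is in 1 of the 8. All motifs were searched on both strands. Of the 8 windows, 0 held the letters TGANTCA that AP-1 factors bind. The letters AGATAA, bound by GATA factors, were likewise found in 0 of them, as was TATAAA, the core promoter element. Over all start regions the share with a match was 7.81% for AP-1, 11.2% for GATA, 14.9% for the ETS core, 35.7% for the GC box and 13.6% for the TATA box. A match of letters is a description and does not show that a factor binds there.

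Depth was similar in the 6 samples, with 25.3 to 26.5 M reads (M, megareads) worked back from the FPKM values in AdGFP and 26.0 to 32.4 M in AdCre. The least covered member value was 353 reads (Sema3a, AdGFP 3). Replicates are separate biological samples per the labels, and with 3 samples in a group they limit the precision. Rit1 itself averaged 8.55 ± 0.774 FPKM among the AdGFP and 9.19 ± 0.351 FPKM among the AdCre samples (SD, n = 3), and since M90I is a single amino acid change, this level does not check the labels. In bulk RNA, fewer cells of a type and less RNA per cell cannot be told apart, which holds for every level below.

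Sema3c (chr5:17574281-17730268, GRCm38) was read in AdGFP 1, 2 and 3 at 16.9, 13.3 and 16.1 FPKM, and in AdCre 1, 2 and 3 at 4.10, 5.10 and 6.05 FPKM. All AdCre samples lay below all AdGFP samples, and the highest AdCre value was under the lowest AdGFP value by more than the range within either group. The means were 15.4 ± 1.90 and 5.08 ± 0.972 FPKM (SD, n = 3), a log2 difference of -1.59 with a standard error of 0.18 from limma with group as the only term. Standard errors in this text are from that fit unless the block is named. With the replicate number as a block, which takes same-numbered samples as pairs, the standard error of Sema3c was 0.15. Between same-numbered samples the log2 difference was -2.01, -1.36 and -1.39. The spread of Sema3c within groups was near the middle, above that of 48.1% of the genes tested. Its highest over lowest ratio was 1.27 in AdGFP and 1.47 in AdCre.

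Sema3d (chr5:12383385-12588948) was read at 7.35, 11.5 and 29.7 FPKM in AdGFP 1, 2 and 3 and at 1.92, 2.21 and 7.12 FPKM in AdCre 1, 2 and 3. The groups did not overlap, but the highest AdCre sample came close to the lowest AdGFP sample. Replicate 3 was the highest and replicate 1 the lowest in both groups, and the highest over lowest ratio was 4.05 in AdGFP and 3.71 in AdCre. The means were 16.2 ± 11.9 and 3.75 ± 2.92 FPKM (SD, n = 3), with a log2 difference of -2.09 and a standard error of 0.64, or 0.11 with the block. Within same-numbered samples the difference was far steadier, at -1.88, -2.33 and -2.05 on the log2 scale. The spread of Sema3d within groups was above that of 96.9% of the genes tested.

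**Figure D1:**
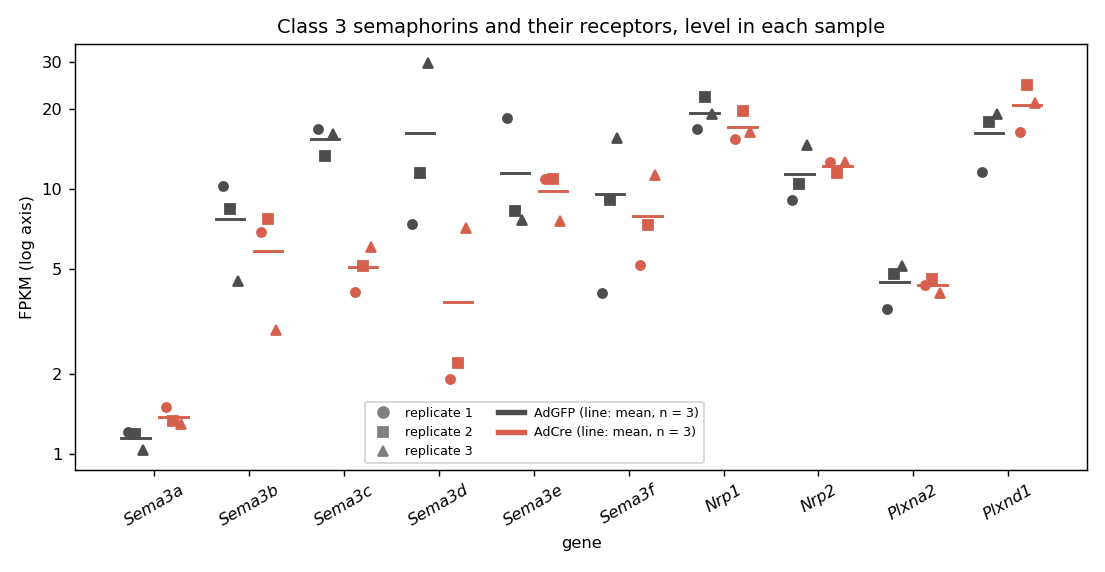
FPKM (log axis) of each of the 10 genes in each sample, with AdGFP in grey and AdCre in red, symbols for replicates 1 to 3 and a line at the group mean (n = 3). Sema3c lies at 13.3 to 16.9 FPKM in AdGFP and 4.10 to 6.05 FPKM in AdCre, while Sema3d keeps the same order of replicates at a lower level.

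The other ligands did not share this difference in level. Sema3a, the founding repulsive member of the class, had 1.21, 1.19 and 1.03 FPKM in AdGFP and 1.50, 1.34 and 1.30 FPKM in AdCre. It was the lowest member in both groups, and the AdCre samples lay above the AdGFP samples without overlap, by 0.25 on the log2 scale with a standard error of 0.19. Sema3e, the ligand of Plxnd1, had 18.5, 8.27 and 7.65 FPKM in AdGFP and 10.9, 10.9 and 7.58 FPKM in AdCre. Its groups overlapped, and its same-numbered differences went in both directions, from -0.75 in replicate 1 to 0.40 in replicate 2.

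Sema3b and Sema3f lie 72.3 kb apart on chromosome 9. Sema3b had 10.3, 8.38 and 4.51 FPKM in AdGFP and 6.85, 7.67 and 2.93 FPKM in AdCre, with the lowest value in replicate 3 of both groups. Sema3f had 4.06, 9.07 and 15.6 FPKM in AdGFP and 5.17, 7.29 and 11.3 FPKM in AdCre, with the highest value in replicate 3 of both groups. The groups overlapped for both genes. The log2 difference of Sema3b was -0.44 with a standard error of 0.43, or 0.12 with the block. Sema3b was lower in each AdCre sample than in the AdGFP sample of the same number. For Sema3f the log2 difference was -0.14 with a standard error of 0.50, or 0.16 with the block. In the fit without the block, Sema3b was at -0.01 without AdCre 3 and -0.78 without AdGFP 3. Sema3f was at 0.30 without AdGFP 3 and -0.65 without AdGFP 1. Like that of Sema3d, the spread of Sema3f within groups was wide, above that of 94.3% of the genes tested.

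The 6 ligands summed to 58.2, 51.6 and 74.6 FPKM in AdGFP samples and to 30.5, 34.6 and 36.3 FPKM in AdCre. Every AdCre sum lay below every AdGFP sum, and the means were 61.5 ± 11.8 and 33.8 ± 2.99 FPKM (SD, n = 3). Without Sema3c and Sema3d the sums were 34.0, 26.9 and 28.8 FPKM in AdGFP and 24.4, 27.2 and 23.1 FPKM in AdCre, and the groups overlapped. Sema3c and Sema3d together made up 41.6%, 47.9% and 61.4% of the ligand sum in AdGFP and 19.8%, 21.2% and 36.3% in AdCre. The largest single ligand was Sema3e in AdGFP 1, Sema3c in AdGFP 2 and Sema3d in AdGFP 3. In AdCre it was Sema3e in samples 1 and 2 and Sema3f in sample 3, so no single ligand led the sum throughout.

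**Figure D2:**
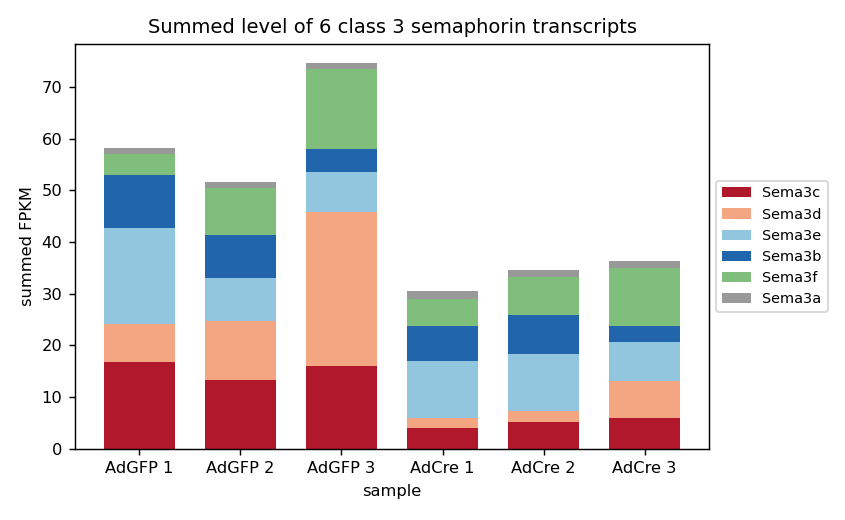
Summed FPKM of the 6 class 3 semaphorin transcripts in each sample, split by gene. The AdGFP sums lie between 51.6 and 74.6 FPKM and the AdCre sums between 30.5 and 36.3 FPKM, and the red and orange sections (Sema3c and Sema3d) hold most of that gap.

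The receptors lay close together in the 2 groups. Nrp1, the neuropilin that binds Sema3a and VEGF, had 16.8, 22.1 and 19.1 FPKM in AdGFP and 15.4, 19.6 and 16.4 FPKM in AdCre. These ranges overlapped, although each AdCre sample was slightly below the AdGFP sample of the same number, by -0.13, -0.17 and -0.22 on the log2 scale. Nrp2, which binds Sema3c and Sema3f, had 9.07, 10.4 and 14.6 FPKM in AdGFP and 12.7, 11.4 and 12.6 FPKM in AdCre. All 3 AdCre values of Nrp2 lay within the AdGFP range, and the ratio of Nrp2 to Nrp1 (0.541, 0.471 and 0.765 in AdGFP, 0.825, 0.584 and 0.772 in AdCre) overlapped between the groups.

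Of the plexins, Plxna2 had 3.52, 4.76 and 5.12 FPKM in AdGFP and 4.34, 4.58 and 4.05 FPKM in AdCre, again with all AdCre values inside the AdGFP range. Plxnd1, the receptor through which Sema3e and Sema3c act on vessels, had 11.6, 17.8 and 19.2 FPKM in AdGFP and 16.4, 24.6 and 21.1 FPKM in AdCre. It had the largest rise among the members, at 0.37 on the log2 scale with a standard error of 0.23, or 0.098 with the block. Without AdGFP 1 the rise was 0.14 in the fit without the block, below those of Sema3a (0.29) and Sema3e (0.28). Plxnd1 was higher in AdCre in each same-numbered comparison (0.49, 0.46 and 0.14), yet its groups overlapped. Of the members, Plxnd1 was the one called in addition to Sema3c and Sema3d in limma-voom with the replicate block. That setting called 1739 of 13788 genes. In limma on log2 FPKM with the block the adjusted p of Plxnd1 was 0.0892, so it was not called there. The ratio of Plxnd1 to Plxna2 was 3.30, 3.74 and 3.74 in AdGFP and 3.78, 5.37 and 5.22 in AdCre, which did not overlap but nearly met. The 4 receptors summed to 51.4 ± 9.11 FPKM in AdGFP samples and to 54.4 ± 5.73 FPKM in AdCre (SD, n = 3).

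**Figure D3:**
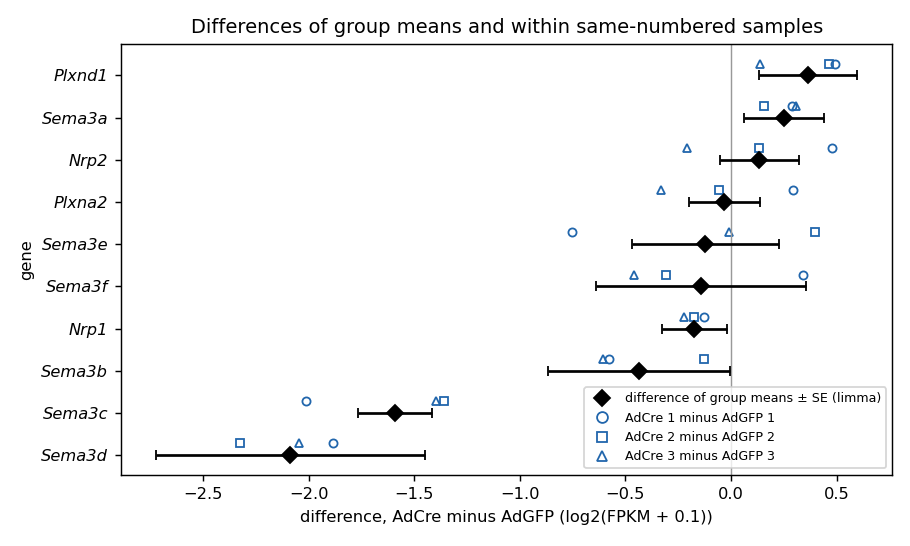
Log2 difference of AdCre minus AdGFP for each of the 10 genes, as the difference of group means (black) and within same-numbered samples (blue). The bars are limma standard errors from the fit without the replicate block. Sema3c and Sema3d lie at -1.59 and -2.09, and the other 8 genes between -0.44 and 0.37.

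Because the members were selected with this contrast known, the counts that follow are a description and nothing is read from them. In limma without a replicate term, 0 of 10 members and 1 of all 13794 genes (0.00725%) had an adjusted p under 0.05, while 2 members and 1402 genes had an unadjusted p under 0.05, and limma-voom on the recovered reads called 0 of either. With the replicate number as a block, 2 members were past that threshold, Sema3c and Sema3d, both lower, where 6.15% of all genes were past it in either direction and 3.51% were lower. Of those 848 genes 364 were higher, against 538 of 875 after rescaling to TPM, so the split of directions over all genes depends on the scaling. Without the samples numbered 3 the blocked fit held 0 of the members and 1 of all genes. Groups did not overlap for 2 members that were lower (8.02% of all genes) and 1 that was higher (7.36%). All same-numbered differences were negative for 4 members, Sema3b, Sema3c, Sema3d and Nrp1 (24.5% of all genes), and positive for 2, Sema3a and Plxnd1 (23.9%). A log2 difference of -1 or below was found in 2 members, against 1.9% of all genes. The order of the replicate numbers was the same in both groups for 4 members, Sema3a, Sema3d, Sema3f and Nrp1, against 39.4% of all genes. The median log2 difference was -0.13 over the members and -0.0022 over all genes tested.

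By level per length, the order in AdGFP was Nrp1 (19.3 FPKM), Plxnd1 (16.2), Sema3d (16.2), Sema3c (15.4), Sema3e (11.5), Nrp2 (11.4), Sema3f (9.57), Sema3b (7.72), Plxna2 (4.47) and Sema3a (1.14). Neighbours in that order had overlapping sample ranges throughout, except Plxna2 and Sema3a. In AdCre the order was Plxnd1 (20.7 FPKM), Nrp1 (17.1), Nrp2 (12.2), Sema3e (9.82), Sema3f (7.92), Sema3b (5.82), Sema3c (5.08), Plxna2 (4.32), Sema3d (3.75) and Sema3a (1.38). There the ranges of Nrp1 and Nrp2, of Nrp2 and Sema3e, and of Sema3d and Sema3a did not overlap. Sema3d thus went from rank 3 to rank 9 and Sema3c from rank 4 to rank 7, while the receptors Nrp1 and Plxnd1 held the first places in both groups. Rescaled to TPM (a per-length measure with the same total in every sample), Sema3d and Nrp2 each moved up 1 place in AdGFP and the AdCre order was unchanged.

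Sema3d, Sema3a, Sema3e and Sema3c lie in that order within 5.35 Mb of chromosome 5. Of the 7 tested genes in this stretch, 3 were not members. Cacna2d1, a calcium channel subunit, was lower at -0.51 on the log2 scale, with an adjusted p of 0.390 in limma and 0.0419 with the block. Hgf, the ligand of MET, differed by 0.31 and Gm10108 by -0.33. The pair of ligands that were lower are thus the outer members of the stretch, with Sema3a and Sema3e between them.

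The 71 other genes of the pathway were listed by role, and 61 of them were at a level that could be tested. In limma without the block 0 of 61 passed, with 8 at an unadjusted p under 0.05, and 0 passed in limma-voom on the recovered reads. With the block 6 passed (9.84%, where 6.15% of all genes did), 3 higher and 3 lower. The median log2 difference of the 61 genes was 0.00014, with 31 higher and 30 lower. Fitted with the block but without the samples numbered 1, 2 or 3, the count was 4, 1 and 0, and with no filter on low values it was 0. A fit without a replicate number rests on fewer samples and has less power. A call lost there does not by itself show that the difference hangs on those samples.

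Among receptors and ligands outside the members, 0 of 7 remaining class 3 semaphorin and plexin genes passed in either fit, with 1 at an unadjusted p under 0.05. Plxna1, the plexin that pairs with Nrp1 for Sema3a, had 24.6, 28.0 and 29.2 FPKM in AdGFP and 36.3, 34.2 and 33.3 FPKM in AdCre. Its groups did not overlap, with a log2 difference of 0.34 and adjusted p values of 0.385 in limma, 0.0944 with the block and 0.020 in blocked limma-voom on the recovered reads. An antisense transcript, Gm26811, covers 10.7% of its exon bases, and the use of strand in counting was not stated, so reads of both cannot be told apart. Plxna4, a further receptor for Sema3a, differed by -0.55 (limma adjusted p = 0.629), a value that was -0.21 without AdGFP 3 and -0.83 without AdGFP 1.

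Of 10 tested membrane-bound semaphorins, 1 rose with the block and 0 fell. Sema7a, a membrane-anchored semaphorin that signals through integrins and Plxnc1, had 3.77, 1.97 and 1.97 FPKM in AdGFP and 9.08, 3.55 and 2.99 FPKM in AdCre. Replicate 1 was highest in both groups and the groups overlapped. The log2 difference was 0.88 with a standard error of 0.45, and the limma adjusted p was 0.585 without the block and 0.0358 with it. Without AdCre 1 the difference was 0.40, and the blocked call was lost without the samples numbered 1, 2 or 3 (limma adjusted p 0.0567, 0.112 and 0.0911).

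Among 10 tested neuropilin co-receptors and VEGF ligands, 1 rose and 2 fell with the block. Flt1, a VEGF receptor, rose from 10.1 ± 0.599 to 15.4 ± 1.89 FPKM (SD, n = 3), without overlap of the groups, and its adjusted p in limma was 0.244 without the block and 0.0271 with it. Vegfb, a ligand of FLT1 and NRP1, went from 51.0 ± 9.63 to 34.7 ± 8.09 FPKM, a log2 difference of -0.57 that was -0.37 without AdCre 3. Vegfd, a ligand of VEGFR3, went from 24.6 ± 14.6 to 14.6 ± 7.81 FPKM, a log2 difference of -0.74. Its same-numbered differences were -0.84, -0.47 and -0.91, while in the fit without the block, leaving out 1 sample moved the value to -0.19 (without AdCre 1), -0.30 (AdGFP 3) or -1.24 (AdGFP 1). Both of these had overlapping groups and a limma adjusted p of 0.0269 with the block, against 0.462 and 0.764 without it. Without the samples numbered 2 the blocked calls of Flt1 and Vegfb were lost (limma adjusted p 0.108 and 0.0632), and without those numbered 3 all 3 were lost (0.0929, 0.123 and 0.125 for Flt1, Vegfb and Vegfd).

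Of the proteases that cut class 3 semaphorins, 5 of 5 had a log2 difference below 0, where 50.4% of all genes did, but that of Pcsk6 was -0.01, with same-numbered differences of both signs. In either fit 0 passed, and 0 had an unadjusted p under 0.05 without the block. Pcsk5, a furin-like convertase, differed by -0.63 and Adamts1, a secreted metalloproteinase, by -0.40, with limma adjusted p of 0.516 and 0.544. Pcsk5 was at -0.33 without AdGFP 1 and Adamts1 at -0.22 without AdCre 1. Of 24 tested genes of intracellular plexin signaling, 1 fell with the block. Rras, a GTPase that plexins inactivate, had 138, 121 and 109 FPKM in AdGFP and 76.1, 97.3 and 73.4 FPKM in AdCre, without overlap. Its log2 difference was -0.58, and the limma adjusted p was 0.321 without the block and 0.0476 with it. The blocked call was lost on rescaling to TPM (limma adjusted p 0.0514) and without the samples numbered 1, 2 or 3 (0.0601, 0.0695 and 0.168).

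Of 5 tested transcription factors of the outflow tract, 1 rose with the block. Foxc2 had 8.70, 7.84 and 7.43 FPKM in AdGFP and 13.7, 10.3 and 13.2 FPKM in AdCre, a log2 difference of 0.62, with a limma adjusted p of 0.263 and 0.0351 with the block, a call that was lost without the samples numbered 1, 2 or 3 (0.0501, 0.0649 and 0.142). Gata6, which is known to drive Sema3c in neural crest and myocardium, differed by -0.44, Hand2 by -0.41 and Gata4 by -0.29, and none of these 3 passed (limma adjusted p with the block 0.0767, 0.0511 and 0.129). These 3 were named after their values were seen, as was Tbx1, which was under the level for testing. Tbx1 had 1, 4 and 10 reads in AdGFP and 79, 40 and 29 reads in AdCre, so its groups did not overlap at a low level. Fitted without the filter its log2 difference was 1.88, with a limma adjusted p of 0.375, and 0.189 with the block.

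**Figure D4:**
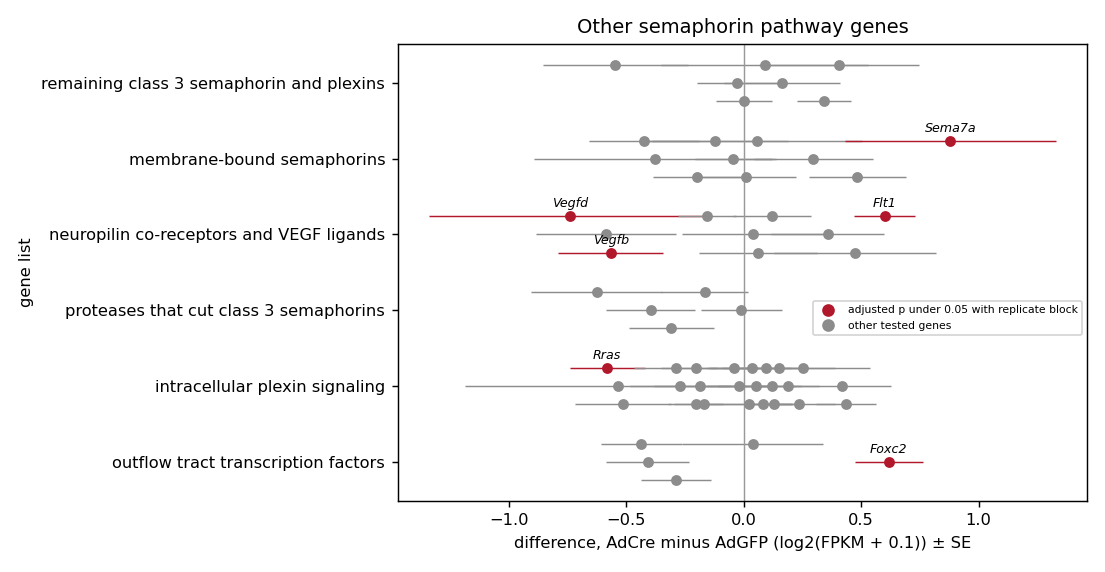
Log2 difference of AdCre minus AdGFP for the 61 tested pathway genes, in 6 lists, with limma standard errors from the fit without the replicate block. The 6 genes past an adjusted p of 0.05 under the replicate block are in red. Sema7a (0.88), Foxc2 (0.62) and Flt1 (0.60) lie to the right and Vegfd (-0.74), Rras (-0.58) and Vegfb (-0.57) to the left.

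Markers of several cell types were read beside these results, since class 3 semaphorins are made by muscle and non-muscle cells of the heart. Calls among them are those of the blocked fit, in which 6.15% of all genes passed, and only 1 gene in all without the samples numbered 3. Cardiomyocyte markers summed to 2081 to 2755 FPKM in AdGFP and 1297 to 1829 FPKM in AdCre, and all 8 were lower in AdCre, 5 of them past the threshold with the block. Myh6 and Myl7 were the highest of them, so the labelled cell type was present. Fibroblast markers were as abundant, summing to 2139 to 3685 FPKM in AdGFP and 1880 to 2747 FPKM in AdCre, led by Col1a1 and Col3a1, and 6 of 7 were lower, 3 past the threshold. These cultures therefore held RNA of both kinds, although the study first kept the cells on plastic and seeded those that had not attached.

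Endothelial markers, led by Eng and Cdh5, summed to 87.2 to 142 FPKM in AdGFP and 126 to 199 FPKM in AdCre, and all 8 were higher, 3 past the threshold with the block. Macrophage markers, led by Lyz2 and Cd68, ranged from 48.9 to 267 FPKM and from 87.1 to 334 FPKM, with 6 of 6 higher and 2 past the threshold. Epicardial markers, led by Krt19 and Msln, ranged from 91.9 to 196 FPKM and from 88.3 to 116 FPKM, with 4 of 5 lower and 0 past it. The summed levels overlapped between groups for every list except the cardiomyocyte markers. Mural markers (Pdgfrb and Cspg4 the highest), lymphatic markers (Pdpn and Prox1) and Schwann cell and neuron markers (Tubb3 and S100b) also had 0 past the threshold. The sum of the Schwann cell and neuron list was mostly Tubb3, and the median log2 difference over its 5 tested genes was -0.71. In that list S100b was lower and Sox10 higher in AdCre without overlap of the groups (log2 difference 1.14 for Sox10), with Th at -1.04 and Dbh at -1.11. Sox10, Th and Dbh were named after their values were seen. Of the red blood cell markers, Hba-a2 and Hbb-bt were listed at 0 in every sample, and the sum was at most 2.18 FPKM.

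The order of replicates was also read in the marker lists, beside the share of 39.4% over all genes. The order of the replicate numbers was the same in both groups, as it was for Sema3d, for 5 of 8 cardiomyocyte, 5 of 7 fibroblast, 6 of 8 endothelial, 5 of 6 mural and 5 of 6 macrophage markers. It was the same for 1 of 5 epicardial, 1 of 5 Schwann cell and neuron and 0 of 3 lymphatic markers. Msln, a mesothelial surface protein, had 14.4, 27.6 and 86.0 FPKM in AdGFP and 13.3, 9.89 and 27.3 FPKM in AdCre. Its highest value was in replicate 3 of both groups, as that of Sema3d was, but its lowest was in AdCre 2.

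Single markers reached the same-numbered difference of Sema3c in replicates 2 and 3. In replicate 1 none of the tested markers did, the lowest being Kcnj8 at -1.38, and none reached that of Sema3d in any replicate, the lowest being Th at -1.84 in replicate 3. Pln, a regulator of the cardiac calcium pump, differed by -1.26, -1.09 and -1.56 on the log2 scale in replicates 1, 2 and 3, and Msln by -0.12, -1.47 and -1.65. Other epicardial markers differed from Msln in direction, with Krt19 at -0.85, 0.93 and 0.98 and Upk1b at 1.41, -0.99 and -0.87. Pln, Kcnj8 and Upk1b were named after their values were seen. The mean over the list was -0.92, -0.49 and -0.98 for cardiomyocyte markers, -0.36, -0.30 and -0.40 for fibroblast markers and 0.13, -0.76 and -0.52 for epicardial markers. The part of cell makeup in Sema3c and Sema3d was not tested.

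**Figure D5:**
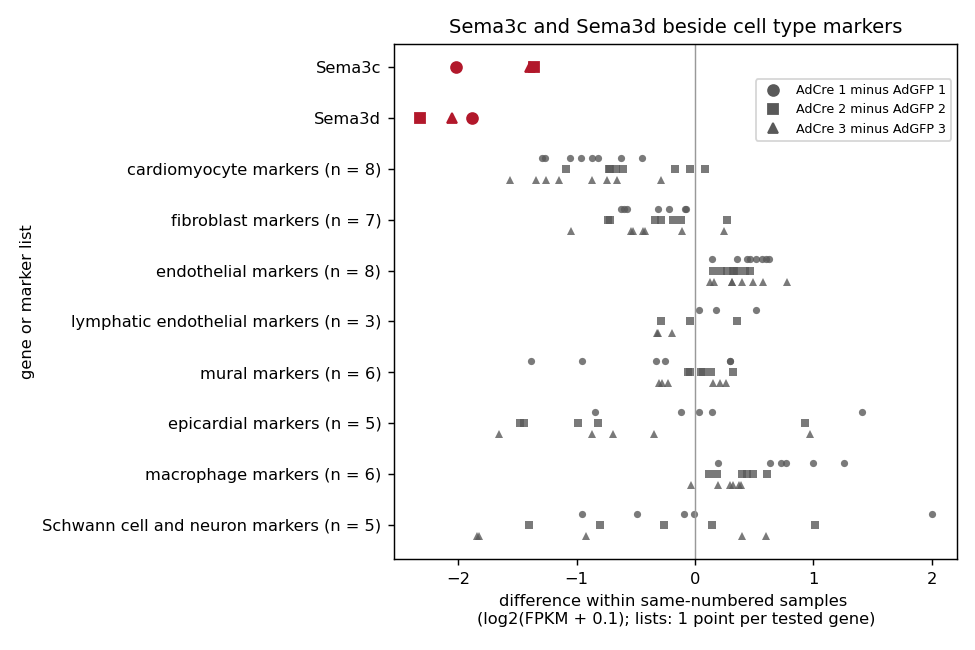
Log2 difference of AdCre minus AdGFP within each of the 3 same-numbered pairs of samples, for Sema3c and Sema3d (red) and for each tested gene of the marker lists (grey). The values of Sema3c run from -2.01 to -1.36, and single cardiomyocyte, mural, epicardial and Schwann cell or neuron markers reach this range, among them Pln at -1.56 and Msln at -1.65 in replicate 3. Krt19, of the same list as Msln, lies at 0.98 in that replicate.

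The protein-coding genes most like Sema3c over the 6 samples, by the root mean square difference of gene-centred log2 profiles, were Efhd1 (0.0773), Myl1 (0.234), Rgs6 (0.253), Rspo3 (0.268) and Tmem196 (0.288). The median over 12428 genes was 0.847. Efhd1, a calcium-binding mitochondrial protein, had means of 4.70 and 1.45 FPKM in AdGFP and AdCre, and Myl1, a muscle myosin light chain, of 63.7 and 21.5 FPKM. Nearest to Plxnd1 were Pcdhga4 (0.0369), Pla2r1 (0.0458), Oscp1 (0.0562), Ecm1 (0.0706) and Slc38a6 (0.0718), where the median was 0.407. For Sema3d, added after its values were seen, genes among the nearest lay farther off, at 0.332 for Steap4, 0.372 for Avpr1a, 0.402 for Gpm6a and 0.434 for Aldh1a1 (median 1.35). Gpm6a, a membrane glycoprotein, had means of 25.5 and 6.02 FPKM, and Aldh1a1, a retinaldehyde dehydrogenase, of 18.3 and 6.88 FPKM. Each likeness rests on 6 samples that share their libraries and scaling, and is given as a description.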

How the data were processed

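The authors deposited FPKM values, 1 column for each of 6 samples. The submitters' processing notes name fastp, STAR 2.5, HTSeq 0.6.1 and mm10; the annotation release, the use of strand and a test were not given in the sources used here. Of 54532 Ensembl IDs, 54495 were matched to GENCODE M21 (GRCm38), which gave symbols and coordinates. FPKM times exon length gave whole reads in every sample for 96.8% of 28433 genes (tolerance 0.05 reads). The scaling factors behind the FPKM differed from those read sums by 0.931 to 1.03.

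log2(FPKM + 0.1) entered limma 3.58.1 (under R 4.3.3), with group as the only term, an intensity trend and Benjamini-Hochberg adjustment over 13794 genes (mean FPKM 0.5 or more), so fold changes of low genes are understated. An adjusted p under 0.05 is a call. An exact permutation test of 3 against 3 samples cannot give less than 0.1. Columns of samples outside the series numbered 0. The labels number biological replicates 1 to 3 but do not define the number. Across genes, departures from the mean of each group correlated at 0.568, 0.268 and 0.506 between same-numbered samples and at -0.497 to 0.0364 otherwise, which was taken as pairing, and the blocked fit is given where it changes a call.

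The members and lists were chosen with earlier results of these data known. The text names all members, and pathway genes called in either fit (up to 6 a list), or otherwise the 2 with the smallest p. It also names the 5 genes most like Sema3c and the member with the largest rise, the 2 highest markers a list, and markers at 0. A gene near Sema3d in profile is not reported here. Alternatives were other pseudocounts (1 and 0.01), filters, TPM, median centring, quantile normalization, removal of the scaling factors, protein-coding genes alone, no trend, voom on recovered reads, the block and leaving out each sample. Variants of the block were added after the data were seen. Between the transcripts of a member and other genes, at most 1.53% of 50-base words were shared, and no antisense gene overlapped a member's exons. Start regions were from RefSeq (GRCm38.p6). The fits were also run on simulated counts with a fixed dispersion and no replicate effect. That run does not check them on data with the replicate structure seen here. Python 3.11.15 with pandas 2.3.3 was used.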

Additional observations from a re-analysis of the deposited data

How the results depend on the processing

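Over 25 alternatives (18 planned, 7 added after the data were seen), the log2 difference ran from -1.72 to -1.38 for Sema3c, -2.67 to -1.52 for Sema3d, -0.78 to -0.01 for Sema3b (the last without AdCre 3), -0.28 to -0.07 for Nrp1, 0.15 to 0.35 for Sema3a and 0.14 to 0.52 for Plxnd1 (0.14 without AdGFP 1). The direction turned in some alternatives for Sema3e (-0.38 to 0.28), Sema3f (-0.65 to 0.30), Nrp2 (-0.04 to 0.33) and Plxna2 (-0.19 to 0.12). The members' median ran from -0.20 to 0.002 and the pathway's from -0.05 to 0.09, and rescaling to TPM moved the median of all genes to 0.09. Without the block 0 members and 0 pathway genes passed in any alternative, and the count over all genes, 1 as reported, was 3 with a pseudocount of 1, 4 without a trend, 0 with no filter, 0 with voom and 0 to 2 without 1 sample.

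With the replicate block, the counts over all genes, members and pathway genes were 848, 2 and 6. They were 875, 2 and 6 with TPM, where Rras was no longer among the 6, 874, 2 and 7 with the authors' scaling removed, 17, 1 and 0 with no filter, and 1739, 3 and 14 with voom. Without the samples numbered 1 they were 811, 2 and 4, without those numbered 2 they were 152, 2 and 1, and without those numbered 3 they were 1, 0 and 0. Fits without a replicate number rest on fewer samples and have less power, and the cause was not tested. Of the blocked calls, 364 of 848 were higher as deposited, 538 of 875 with TPM and 479 of 874 with the scaling removed, so directions over all genes depend on scaling. With 3 samples a group, replicate spread limits precision.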
